A study of Mus musculus with 10 samples.

Results

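Genes of the transforming growth factor-beta (TGF-beta) and bone morphogenetic protein (BMP) pathways were compared between elastase-infused and saline-infused mouse aorta. The list held 46 genes, picked by name for their roles as ligands, latent binding proteins, proteases, receptors, SMADs and antagonists. All 46 names were on the array, among 35527 gene names in all, and 66 probes carried them. Of the 46, 45 gave signal above background on enough arrays to be tested, and 42 did so on all 10 arrays. The gene not tested was Bmp5, a BMP ligand, whose probe was well above background on 2 PPE arrays and on 0 sham arrays.

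The animals were male C57BL/6J mice aged 10 weeks, with no special diet and no engineered allele stated. The infrarenal aorta was tied off and filled through a catheter for 5 min at 100 mmHg. In the PPE group (n = 5) the saline held type I porcine pancreatic elastase (PPE) at 1.5 U per mL, an elastin-digesting enzyme used to induce an abdominal aortic aneurysm. In the sham group (n = 5) the saline was infused alone, so both groups shared the surgery, the ligatures and the pressure. The whole infused segment, below the renal arteries, was taken at 7 days, with 1 mouse per array and no pooling, so p-values measure the spread between mice. The authors left out arrays with poor hybridization and outliers by clustering, and which ones is not stated.

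TGF-beta is secreted in a latent complex, bound to its own propeptide and to a latent TGF-beta binding protein (LTBP) that anchors it to fibrillin in the matrix. Once freed, it binds type II and type I receptors that phosphorylate SMAD2 and SMAD3, whereas BMPs act through their own receptors and SMAD1, SMAD5 and SMAD9. Both arms share SMAD4, are dampened by the inhibitory SMAD6 and SMAD7 and by secreted antagonists, and in the aortic wall they bear on matrix synthesis and on the contractile state of smooth muscle.

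The pathway genes moved in both directions. Of the 45 tested, 10 were higher and 10 lower in PPE at a limma adjusted p under 0.01, and 25 did not pass. That is 22.2% higher and 22.2% lower, against 13.9% higher and 9.96% lower among the 22520 gene names tested. Group values did not overlap in 20 of the 45 (44.4%), against 25.5% of all names. The median log2 fold change of the pathway genes was -0.04, and that of all names 0.02. Higher were Ltbp2, Tgfb1, Gdf15, Fst, Inhbb, Bmp1, Fstl1, Acvr1b, Furin and Smad3. Lower were Ltbp1, Ltbp4, Smad6, Smad9, Bmpr1a, Bmp6, Fstl3, Tgfb2, Smad7 and Acvr2b. All 20 kept their direction under every other scaling run. Replacing loess by a plain median centring moved the median of all names to 0.41 and that of the pathway genes to 0.53, gave 408 higher and 8 lower names overall and passed 0 of the pathway genes in limma. There, 13 had an unadjusted p under 0.05, with no count over all names to set beside it. In the main fit 29 of the 45 did, and 9825 of the 22520 names. SAM, the study's test rewritten here, called all 20 in the same direction and 4 more, for 12 higher and 12 lower. It also called more of all names higher than limma did, as given under the processing below.

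**Figure D1:**
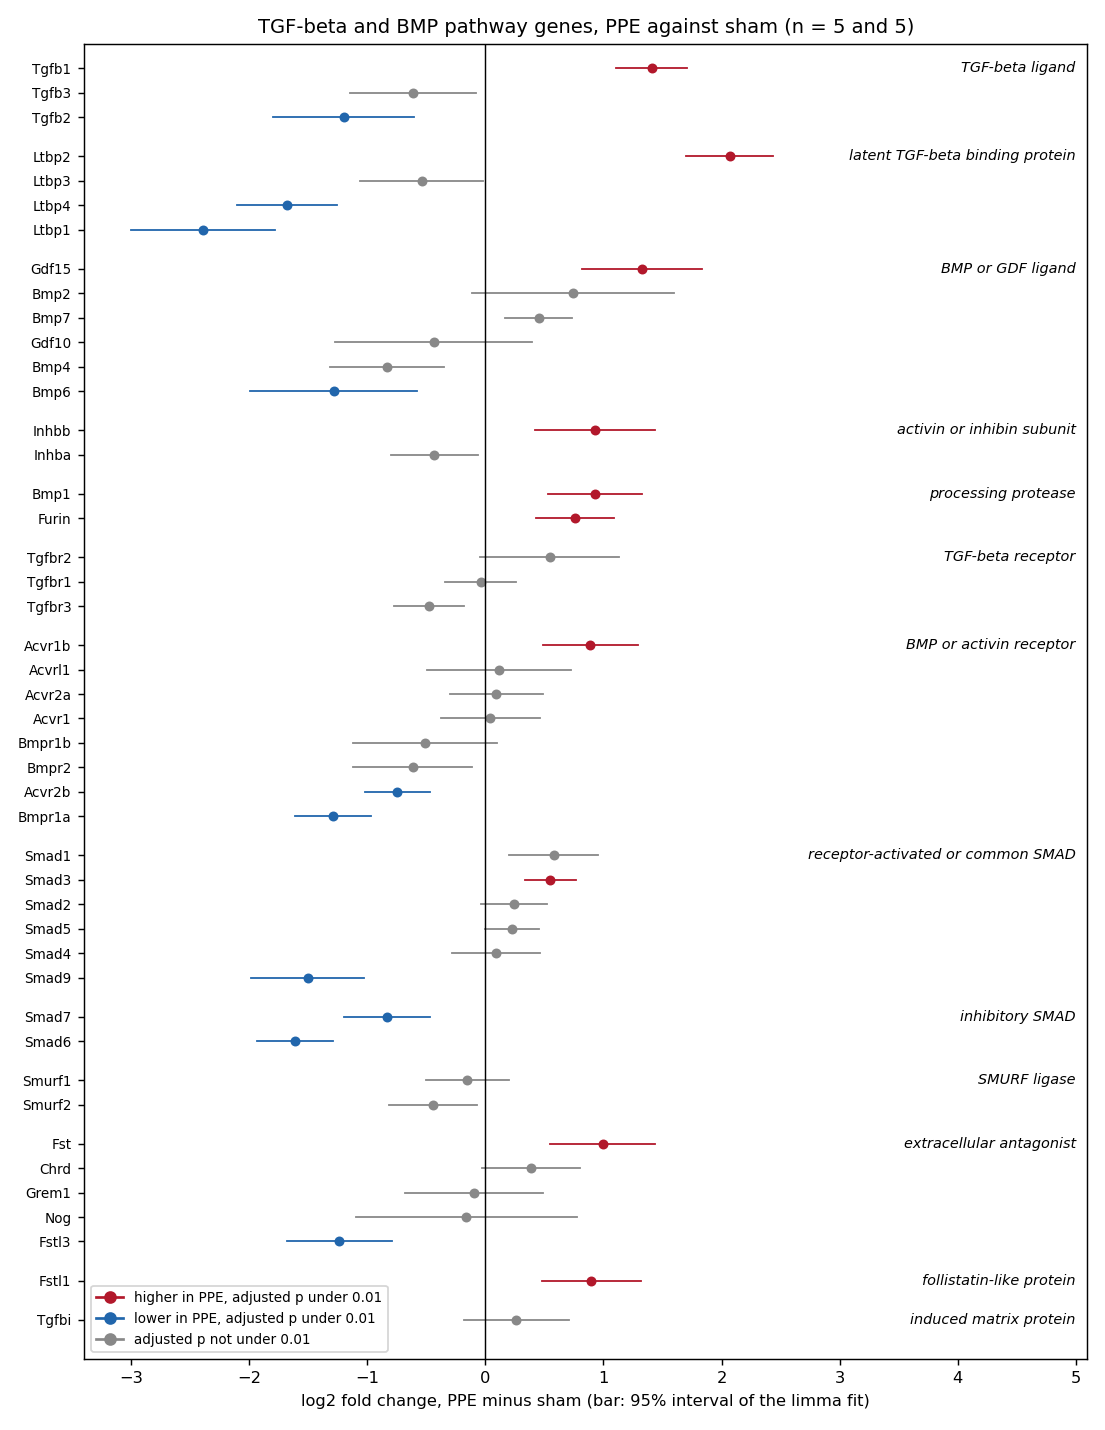
Each point is the log2 fold change (PPE minus sham, x axis) of a tested pathway gene, grouped by role, with the 95% interval of the limma fit as a bar (n = 5 and 5 arrays). Red and blue points passed an adjusted p of 0.01 as higher or lower, and most roles hold points on both sides of 0. The longest increase is Ltbp2 at 2.07 and the longest decrease Ltbp1 at -2.40.

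Every value below is a log2 ratio of aorta over a universal mouse reference RNA on the same array, and a difference of 1 is a 2-fold change. Ratios are compared between groups for 1 probe, not between genes. The share of spots with aortic signal above background ranged from 37.6% (sham 5) to 65.8% (PPE 1), with PPE 5 the lowest of its group at 45.8%. Without sham 5 and PPE 5, a choice made after the data were seen, the pathway list gave 11 increases and 10 decreases, with 17 of the 20 calls kept. Sham 1 shared slide 1 with PPE 1 and PPE 2, and sham 2 and sham 3 shared slide 2 with PPE 3 and PPE 4. The other 3 arrays had a slide each. All 20 genes that passed had the same sign within slide 1 and within slide 2.

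Markers of several cell types moved too. Of 11 macrophage markers 8 were higher, and the mean log2 ratio over that list was 0.86 to 1.46 on sham and 2.72 to 3.74 on PPE arrays. Of 9 tested neutrophil markers 7 were higher, with list means of 0.39 to 0.53 on sham and 2.67 to 3.92 on PPE arrays. Only 4 of these 9 were above background on all 10 arrays. Ngp was so on 5 arrays and Mpo and Cxcr2 on 6, so part of this list rests on values near background. Of 10 smooth muscle markers 8 were lower, with list means of 3.48 to 4.46 on sham and 2.03 to 3.19 on PPE arrays. The groups did not overlap in any of these 3 lists. Fibroblast markers were mixed, with 4 higher and 1 lower of 10 (the lower one, Vim, lay above 0 with median centring), and list means of 2.05 to 2.39 against 2.67 to 3.46, without overlap. Of 10 lymphocyte markers 3 were higher, and of 10 adipocyte markers 3 were lower, with overlapping list means in both. Skeletal muscle markers had 1 of 9 tested lower and list means from 0.68 to 4.45, with overlap. Of 10 endothelial markers limma called 0, with 2 at an unadjusted p under 0.05, and SAM called 1. No defining marker of smooth muscle, macrophages or endothelium fell under the filter. Mylpf (skeletal muscle) did, and Ly6g (neutrophil) had no probe by that name and was not analysed here. In such bulk tissue, fewer cells of a type and less RNA per cell cannot be told apart. What part these shifts had in the values of the pathway genes was not tested.

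**Figure D2:**
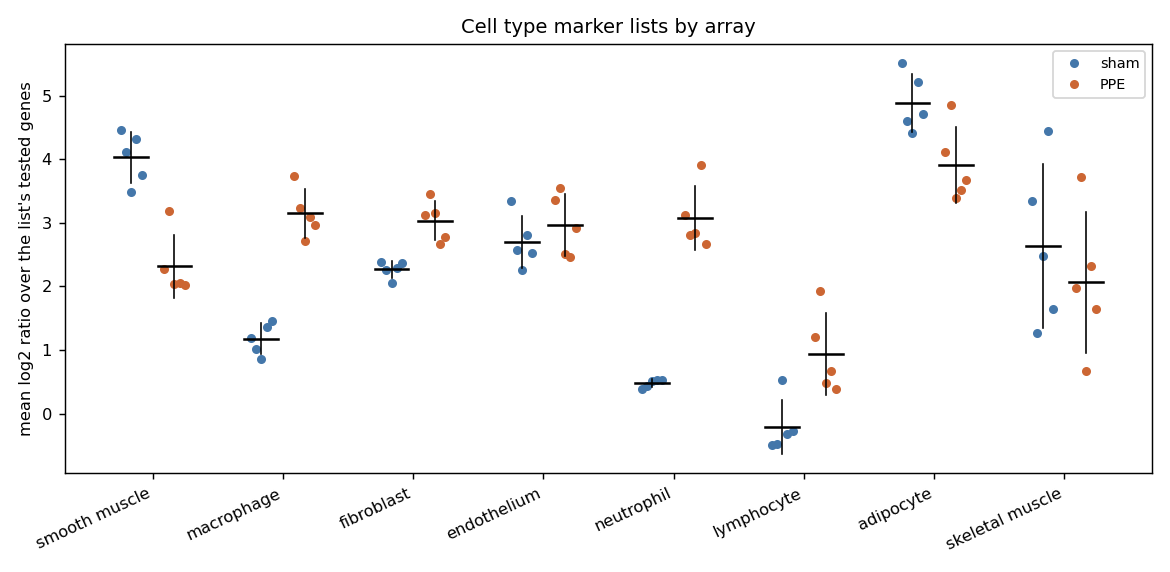
Each point is 1 array, and its height is the mean log2 ratio (aorta over reference) over the tested genes of a marker list, with the group mean and SD (n = 5). Sham and PPE separate for smooth muscle, macrophages, neutrophils and fibroblasts, and overlap for the other lists.

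Promoters are shown for 3 pairs of genes: both TGF-beta ligands that changed in opposite directions, both LTBPs with the largest opposite changes, and the SMAD6 and SMAD9 genes, both lower and both of the BMP arm. Each is the 250 bases before the transcription start, 5' to 3' on the gene's strand, from RefSeq (GRCm38.p6). They lie at chr7:25686752-25687001 (Tgfb1, + strand), chr1:186705990-186706239 (Tgfb2, - strand), chr17:75005279-75005528 (Ltbp1, + strand, the first of 2 listed starts), chr12:84876492-84876741 (Ltbp2, - strand), chr9:64022060-64022309 (Smad6, - strand) and chr3:54755332-54755581 (Smad9, + strand). Capitals mark matches, on either strand, to CAGAC (reverse complement GTCTG), the core bound by SMAD3 and SMAD4, and to GGCGC (reverse complement GCGCC), a GC-rich SMAD element. A GGCGCC counts as 2 overlapping matches.
Tgfb1: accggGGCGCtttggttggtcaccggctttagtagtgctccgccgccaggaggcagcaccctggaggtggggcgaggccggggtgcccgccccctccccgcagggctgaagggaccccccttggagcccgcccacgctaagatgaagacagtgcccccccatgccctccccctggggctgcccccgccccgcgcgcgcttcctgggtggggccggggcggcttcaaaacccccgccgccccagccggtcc
Tgfb2: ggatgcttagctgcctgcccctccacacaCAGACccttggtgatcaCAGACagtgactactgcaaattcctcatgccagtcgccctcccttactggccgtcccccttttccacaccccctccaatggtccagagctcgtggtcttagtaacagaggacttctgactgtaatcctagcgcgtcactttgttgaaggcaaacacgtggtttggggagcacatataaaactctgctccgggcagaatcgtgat
Ltbp1: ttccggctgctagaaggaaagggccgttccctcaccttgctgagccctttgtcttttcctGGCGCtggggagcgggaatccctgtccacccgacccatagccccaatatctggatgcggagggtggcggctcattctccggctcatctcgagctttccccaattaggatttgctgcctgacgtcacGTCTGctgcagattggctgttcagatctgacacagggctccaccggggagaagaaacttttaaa
Ltbp2: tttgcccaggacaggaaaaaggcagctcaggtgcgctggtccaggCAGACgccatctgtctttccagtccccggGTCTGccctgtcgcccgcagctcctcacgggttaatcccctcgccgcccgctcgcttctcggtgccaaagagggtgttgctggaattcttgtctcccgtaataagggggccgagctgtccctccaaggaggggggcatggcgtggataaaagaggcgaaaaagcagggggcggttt
Smad6: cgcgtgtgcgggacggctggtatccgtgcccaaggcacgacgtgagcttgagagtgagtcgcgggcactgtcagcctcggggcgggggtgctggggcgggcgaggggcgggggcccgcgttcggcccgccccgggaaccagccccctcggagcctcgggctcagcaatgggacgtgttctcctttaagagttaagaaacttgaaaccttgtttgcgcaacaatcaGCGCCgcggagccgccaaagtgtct
Smad9: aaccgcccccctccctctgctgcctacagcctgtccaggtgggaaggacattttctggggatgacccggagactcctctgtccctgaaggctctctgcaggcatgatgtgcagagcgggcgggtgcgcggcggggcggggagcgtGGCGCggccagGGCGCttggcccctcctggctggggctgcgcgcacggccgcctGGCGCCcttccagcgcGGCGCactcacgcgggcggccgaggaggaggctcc

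Tgfb2 and Ltbp2 each held 2 CAGAC matches and 0 of GGCGC, although their transcripts moved in opposite directions. Tgfb1 and Smad6 each held 1 GGCGC and 0 of CAGAC, Ltbp1 held 1 of each, and Smad9 held 5 GGCGC within its last 105 bases. The table matched 35 of the 46 genes, with 45 starts. CAGAC was in 53.3% of these starts, against 42.2% of all 32851 starts, and in 50% of those of higher genes and 50% of those of lower genes. GGCGC was in 60% of the starts of pathway genes, against 32% of all starts. It was in 4 of the 10 starts of 8 higher genes (40%) and 9 of the 12 starts of 9 lower genes (75%). For the 17 genes that did not pass, it was in 14 of 22 starts (63.6%). These are matches of letters, not bound sites. GGCGC holds only G and C, and the sets of starts were not matched for GC content. That content ran from 53.6% (Tgfb2) to 75.2% (Tgfb1) in the promoters shown.

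Of the TGF-beta ligands, Tgfb1 rose, Tgfb2 fell and Tgfb3 did not pass. Tgfb1, the main isoform of inflamed and healing tissue, read -0.63, -0.62, -0.48, -0.58 and -0.58 on sham 1 to 5, and 1.28, 0.84, 0.57, 0.87 and 0.59 on PPE 1 to 5. The sham mice lay close together and every PPE mouse was above them. The difference was 1.41 (SE 0.14, 95% interval 1.11 to 1.71, limma adjusted p 1.42e-05), or 2.65-fold, and it was 1.69 within slide 1 and 1.27 within slide 2. An exact two-sided permutation test gave 0.00794, the smallest p that 5 against 5 allows, as it did for every other gene below whose groups did not overlap.

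Tgfb2, the isoform tied to vascular development, read 0.89, 0.85, -0.44, 0.25 and -0.07 on sham 1 to 5, and -0.63, -0.47, -0.82, -1.33 and -1.28 on PPE 1 to 5. The groups did not overlap, but sham 3 lay just above PPE 2. The difference was -1.20 (SE 0.27, limma adjusted p 0.00483), a level of 43.5% of sham. A second Tgfb2 probe gave -0.75 and passed as well (limma adjusted p 0.00716). The call was lost without sham 1, sham 2, sham 4, PPE 3, PPE 4 or PPE 5, with limma adjusted p of 0.0109 to 0.0144 and differences of -1.22 to -1.05, and with sham 5 and PPE 5 both left out it was -1.20 (limma adjusted p 0.0110). Tgfb3 averaged 2.22 in sham and 1.60 in PPE, a difference of -0.62 with overlapping groups (limma adjusted p 0.0704).

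The LTBPs, which tether the latent complex to the matrix, held the largest changes of the list in both directions, although in the scanner software's own log ratio the difference of Smad9 (-3.44) exceeded that of Ltbp1 (-2.47). Ltbp1, which carries latent TGF-beta, read 2.63, 2.51, 1.72, 2.23 and 1.96 on sham 1 to 5, and -0.47, 0.85, -0.19, -0.68 and -0.43 on PPE 1 to 5. PPE 2 kept the highest level of its group and was still below every sham mouse. The difference was -2.40 (SE 0.28, limma adjusted p 5.37e-05), which left 19.0% of the sham level. PPE 2 was also the highest PPE array for the smooth muscle list, at 3.19 against 2.03 to 2.27 on the other PPE arrays, and the tie was not tested.

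Ltbp4, which bears on elastic fibre assembly, read 2.82, 2.77, 2.39, 2.99 and 2.58 on sham 1 to 5, and 0.89, 1.72, 0.80, 0.70 and 1.01 on PPE 1 to 5. The groups were far apart, again with PPE 2 highest in its group. The difference was -1.68 (SE 0.19, limma adjusted p 4.88e-05), and a second probe gave -1.90.

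Ltbp2, a matrix protein of this family that does not bind latent TGF-beta, went the other way. It read -0.09, -0.31, -0.55, -0.47 and -0.65 on sham 1 to 5, and 1.45, 1.53, 2.18, 1.35 and 1.77 on PPE 1 to 5. All PPE mice were above all sham mice. The difference was 2.07 (SE 0.17, limma adjusted p 4.57e-06), or 4.19-fold. Ltbp3 differed by -0.54 with overlapping groups (limma adjusted p 0.103), and its second probe by -0.63.

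Both proteases of the list rose. Furin, which cleaves the TGF-beta precursor, read 0.77, 0.59, 0.15, 0.42 and 0.51 on sham 1 to 5, and 1.22, 1.17, 1.02, 1.14 and 1.69 on PPE 1 to 5. The groups were apart, and PPE 5 stood above the other PPE mice. The difference was 0.76 (SE 0.15, limma adjusted p 0.00225), and without PPE 5 it kept the call. With slide as a fixed block it was 0.59 and did not pass (limma adjusted p 0.0131).

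Bmp1, despite its name a metalloproteinase that trims procollagens and cleaves LTBP1, read 1.03, 0.64, 0.27, 0.95 and 0.77 on sham 1 to 5, and 1.91, 1.98, 1.49, 1.23 and 1.70 on PPE 1 to 5. Every PPE mouse was above every sham mouse. The difference was 0.93 (SE 0.18, limma adjusted p 0.00185). Of its other 2 probes, one gave 0.76, and one at chr14:70886415-70886474 (mm9, - strand), designed to another Bmp1 transcript, gave 2.003, and both passed.

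None of the 3 TGF-beta receptors passed in limma, with 1 at an unadjusted p under 0.05 (9825 of the 22520 names). Tgfbr1, the type I receptor, differed by -0.04 (95% interval -0.34 to 0.26), and on PPE arrays it ranged only from 1.35 to 1.49. Tgfbr2, the type II receptor, differed by 0.55 (interval -0.04 to 1.13). On PPE 1 to 4 it read 1.78 to 2.24, above the highest sham value of 1.51, whereas PPE 5 read 0.71, below every sham mouse. A dimmer second Tgfbr2 probe gave 0.49 (limma adjusted p 0.0561). On that probe PPE 5 read 0.79, the highest of all arrays, so the probes disagree on this mouse. Tgfbr3, or betaglycan, a co-receptor that presents TGF-beta2, differed by -0.48 (limma adjusted p 0.0170), and SAM called it lower.

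**Figure D3:**
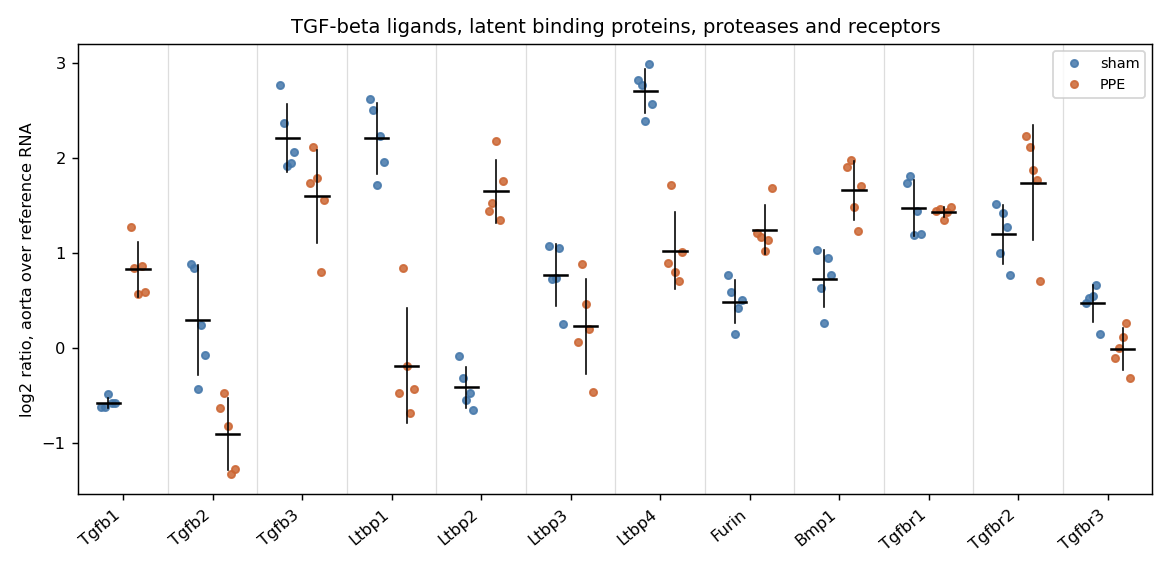
Each point is 1 array, and its height is the log2 ratio of aorta over reference for the gene's brightest tested probe, with group mean and SD (n = 5). Tgfb1, Ltbp2, Furin and Bmp1 sit higher and Tgfb2, Ltbp1 and Ltbp4 lower in PPE without overlap, whereas Tgfb3, Ltbp3 and the receptors overlap.

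Among BMP and growth differentiation factor (GDF) ligands, 1 of 6 tested was higher and 1 lower. Gdf15, a stress-induced member of the superfamily, read -3.05, -2.31, -2.71, -2.89 and -1.90 on sham 1 to 5, and -1.25, -1.59, -1.53, -1.14 and -0.74 on PPE 1 to 5. PPE mice were all above sham mice. The difference was 1.32 (SE 0.23, limma adjusted p 0.000950), or 2.50-fold.

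Bmp6, a BMP known for its control of iron balance, read 3.90, 3.07, 2.90, 3.17 and 3.36 on sham 1 to 5, and 2.56, 2.70, 1.67, 2.15 and 0.88 on PPE 1 to 5. The groups did not overlap, and PPE 2 came nearest to sham 3. The difference was -1.29 (SE 0.32, limma adjusted p 0.00896). The call was lost without any of the 5 sham mice, PPE 3 or PPE 4, with limma adjusted p of 0.0110 to 0.0252, and with sham 5 and PPE 5 both left out it was -0.99 (limma adjusted p 0.0164).

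Bmp4 was close to the threshold, with a difference of -0.83 (SE 0.22, limma adjusted p 0.0113). It averaged 1.02 in sham and 0.19 in PPE, and only PPE 5, at 0.81, reached above the lowest sham mouse. Bmp7 differed by 0.45 (limma adjusted p 0.0175) with groups that did not overlap. SAM called Bmp4 lower and Bmp7 higher. Bmp2, which varied widely among sham mice (1.78 to 3.81), differed by 0.74 (limma adjusted p 0.170), and Gdf10 by -0.44 (limma adjusted p 0.423).

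The activin subunits gave 1 call. Inhbb, the beta-B subunit of activin and inhibin, read -0.54, -0.79, -0.65, -0.82 and -0.82 on sham 1 to 5, and 0.45, -0.24, 0.41, 0.90 and -0.50 on PPE 1 to 5. Sham mice were alike, and PPE mice were spread, with PPE 5 barely above sham 1. The difference was 0.93 (SE 0.23, limma adjusted p 0.00866), and the call was lost without any of the sham mice, PPE 1, PPE 3 or PPE 4, with limma adjusted p of 0.0143 to 0.0243. Inhba, the beta-A subunit, differed by -0.43 (limma adjusted p 0.0664).

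Of 8 BMP or activin receptors, 1 was higher and 2 lower. Bmpr1a, the widely expressed type I BMP receptor ALK3, read 1.78, 1.83, 1.39, 1.50 and 1.45 on sham 1 to 5, and 0.17, 0.71, 0.34, 0.02 and 0.25 on PPE 1 to 5. The groups were well apart. The difference was -1.29 (SE 0.15, limma adjusted p 4.65e-05), which left 40.9% of the sham level.

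Acvr2b, a type II receptor for activins and some BMPs, read 0.09, -0.21, -0.31, 0.13 and -0.21 on sham 1 to 5, and -1.08, -0.62, -0.83, -0.90 and -0.81 on PPE 1 to 5. PPE mice were all lower. The difference was -0.75 (SE 0.13, limma adjusted p 0.000718).

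Acvr1b, the activin type I receptor ALK4, was higher. It read 0.68, 0.56, 0.54, 0.46 and 0.24 on sham 1 to 5, and 1.70, 1.47, 1.26, 1.75 and 0.74 on PPE 1 to 5. The groups did not overlap, though PPE 5 was close to sham 1. The difference was 0.89 (SE 0.18, limma adjusted p 0.00277). A dimmer Acvr1b probe gave 0.19 and did not pass (limma adjusted p 0.410), and the mean of both probes gave 0.54. The other 5 did not pass: the BMP type II receptor Bmpr2 differed by -0.62 (limma adjusted p 0.0585), Bmpr1b by -0.51, Acvrl1 (ALK1, an endothelial receptor) by 0.11, Acvr2a by 0.09 and Acvr1 by 0.04. For Acvrl1, Acvr2a and Acvr1 the 95% intervals ran from -0.49 to 0.72, -0.30 to 0.48 and -0.38 to 0.46.

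Of the 5 receptor-activated SMADs, Smad3 passed as higher and Smad9 as lower. Smad3, of the TGF-beta and activin arm, read -0.88, -0.96, -0.98, -0.71 and -0.83 on sham 1 to 5, and -0.29, -0.27, -0.20, -0.36 and -0.48 on PPE 1 to 5. Spread was small in both groups and they did not overlap. The difference was 0.55 (SE 0.10, limma adjusted p 0.00105), or 1.46-fold. A dim second probe at chr9:63497492-63497551 (mm9, - strand), above background on 5 arrays, gave -0.01, and the mean of both probes gave 0.27 and did not pass (limma adjusted p 0.0434). Smad2, its partner, differed by 0.24 (limma adjusted p 0.166).

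Smad9, also called SMAD8, of the BMP arm, read 0.50, 0.44, 0.42, 0.62 and 0.22 on sham 1 to 5, and -1.95, -0.95, -0.96, -0.88 and -0.56 on PPE 1 to 5. It was above background on 5 sham and 3 PPE arrays, and PPE 1 lay far below the others. The difference was -1.51 (SE 0.22, limma adjusted p 0.000262), and in the scanner software's own log ratio it was -3.44. Smad1 and Smad5 of the same arm differed by 0.58 (limma adjusted p 0.0213) and 0.22 (limma adjusted p 0.123). SAM called Smad1 higher, but its second probe gave 0.03. The shared Smad4 differed by 0.09 (95% interval -0.29 to 0.46).

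Both inhibitory SMADs fell. Smad6, which blocks BMP receptors and is itself a BMP target, read 2.24, 1.80, 1.52, 1.67 and 1.91 on sham 1 to 5, and 0.01, 0.09, 0.36, 0.16 and 0.44 on PPE 1 to 5. The gap between groups was wider than either group. The difference was -1.62 (SE 0.15, limma adjusted p 9.23e-06), which left 32.6% of the sham level.

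Smad7, which blocks both arms, read 1.22, 0.89, 0.33, 1.06 and 0.68 on sham 1 to 5, and -0.06, 0.06, 0.12, -0.27 and 0.15 on PPE 1 to 5. The groups did not overlap, and sham 3 was nearest to PPE. The difference was -0.83 (SE 0.17, limma adjusted p 0.00218). The ubiquitin ligases Smurf1 and Smurf2, which degrade SMADs and receptors together with SMAD7, differed by -0.15 and -0.45 (limma adjusted p 0.506 and 0.0610), and all 3 Smurf2 probes were below 0 and did not pass.

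**Figure D4:**
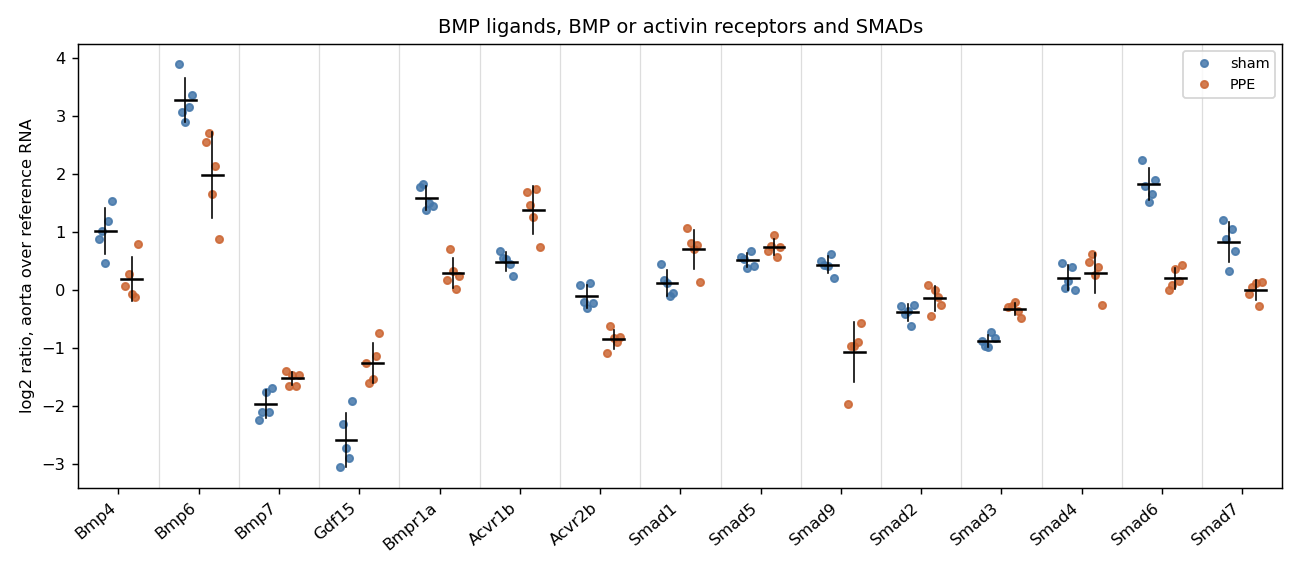
Each point is 1 array, and its height is the log2 ratio of aorta over reference for the gene's brightest tested probe, with group mean and SD (n = 5). Bmp6, Bmpr1a, Acvr2b, Smad9, Smad6 and Smad7 lie lower and Gdf15, Acvr1b and Smad3 higher in PPE without overlap, and Smad2, Smad4 and Smad5 overlap.

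Of the 5 secreted antagonists, 1 was higher and 1 lower, both activin-binding. Fst (follistatin) read 0.82, 0.18, 0.36, 0.26 and 0.10 on sham 1 to 5, and 0.83, 1.38, 1.82, 1.03 and 1.63 on PPE 1 to 5. Sham 1 and PPE 1, on the same slide, were nearly equal, and the remaining mice were apart. The difference was 0.99 (SE 0.20, limma adjusted p 0.00260). It was 0.28 within slide 1 and 1.15 within slide 2, and with slide as a fixed block it was 0.81 and did not pass (limma adjusted p 0.0486). Without sham 5 and PPE 5 it was 0.86 (limma adjusted p 0.0133).

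Fstl3, a follistatin-like protein of similar binding, read 1.48, 1.34, 0.82, 1.20 and 0.67 on sham 1 to 5. On PPE 1 to 4 it read -0.34, 0.22, 0.07 and 0.004, and on PPE 5 -0.64. All PPE mice were below all sham mice. The difference was -1.24 (SE 0.20, limma adjusted p 0.000579).

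The BMP antagonists did not pass: Grem1 (gremlin) differed by -0.10, Nog (noggin) by -0.16 and Chrd (chordin) by 0.38. Noggin read -1.20 to -0.89 on PPE 1 to 4 and 1.32 on PPE 5. A second chordin probe, at chr16:20738166-20738225 (mm9, + strand) and above background on 5 arrays, gave -0.42 and passed as lower (limma adjusted p 0.00363), against the direction of the brighter probe.

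Fstl1, a secreted glycoprotein that is follistatin-like by sequence, read 2.55, 2.91, 2.40, 2.51 and 2.63 on sham 1 to 5, and 3.36, 3.58, 3.62, 2.88 and 4.03 on PPE 1 to 5. It was the only gene that passed with overlapping groups, as PPE 4 lay just below sham 2. The difference was 0.89 (SE 0.19, limma adjusted p 0.00339, exact two-sided permutation p 0.0159). The call was lost without sham 4 or PPE 3 (limma adjusted p 0.0105 and 0.0106) and with slide as a fixed block (0.73, limma adjusted p 0.0326). Tgfbi, a matrix protein induced by TGF-beta, differed by 0.26 (limma adjusted p 0.363).

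Further genes of the pathway formed a list of 83, of which 66 were tested, and lay nearer to the shares of all names. Of the 66, 10 were higher and 10 lower (15.2% each, against 13.9% and 9.96% of all names), with a median difference of 0.03. Group values did not overlap in 18 of the 66 (27.3%), against 25.5% of all names. The genes that hold or free the latent complex had 5 higher and 1 lower of 11: Fbn2 (3.59) and Fbn1 (1.35), the fibrillins of microfibrils, Thbs1 (3.22), an activator of latent TGF-beta, Lrrc33 (2.57), which displays latent TGF-beta on myeloid cells, and the protease Tll1 (1.55) were higher, and the proprotein convertase Pcsk6 (-1.51) was lower. Other antagonists had 1 higher and 3 lower of 14. Bmper (2.39), a BMP binder of endothelium, was higher. Sost (-2.57), or sclerostin, Twsg1 (-1.42), a chordin partner, and Wfikkn1 (-0.81) were lower. Twsg1 varied little within groups, with means of 1.78 ± 0.12 (SD, n = 5) in sham and 0.36 ± 0.05 (SD, n = 5) in PPE.

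Of 12 other ligands tested, Gdf9 (0.78) and Gdf3 (0.65) were higher and Gdf5 (-1.39) lower. Of 9 other receptors and co-receptors, 0 were higher and 2 lower in limma, the nodal receptor Acvr1c (-1.70) and the BMP co-receptor Rgma (-0.92). SAM called 0 higher and 4 lower. An unadjusted p under 0.05 was found for 4 of the 9, close to the share of all names (9825 of 22520). Of 20 SMAD regulators, the repressor Tgif1 (1.33) and the kinase adaptor Tab2 (0.59) were higher, and the ligase Wwp2 (-1.41), the phosphatase Ppm1a (-0.67) and Pmepa1 (-0.90), a TGF-beta-induced inhibitor, were lower. Acvr1c and Pmepa1 passed with overlapping groups. Fbn1, Wfikkn1, Gdf9, Gdf3, Gdf5, Rgma, Tgif1, Tab2, Ppm1a and Pmepa1 are named because the counts were small, after their values were seen.

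Genes known to respond to SMADs moved both ways as well. Of 23 tested, 5 were higher and 7 lower (21.7% and 30.4%, against 13.9% and 9.96% of all names), with a median of -0.42, which turned to 0.14 with median centring (0.41 for all names). Among 15 genes of the SMAD2/3 arm, Lox (2.08), a collagen cross-linking enzyme, Col1a1 (2.04), Col3a1 (1.95), Col1a2 (1.21) and the cell cycle inhibitor Cdkn1a (0.77) were higher. Tagln (-2.95), Acta2 (-2.48), Cnn1 (-1.73), all of the contractile apparatus of smooth muscle, and the coactivator Tgfb1i1 (-1.26) were lower. Ctgf (-1.36), named after its values were seen, just missed the threshold (limma adjusted p 0.0101) with groups that did not overlap. Acta2, Tagln and Cnn1 are also in the smooth muscle list and the 3 collagens in the fibroblast list given above.

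Among 8 tested genes of the SMAD1/5/9 arm, 0 were higher and 3 lower in limma, and all 8 differences were below 0, as were 5 of the 8 with median centring. SAM called 0 higher and 5 lower, and 7 of the 8 had an unadjusted p under 0.05, against 9825 of the 22520 names. Id1, the best known BMP target, read 1.31 ± 0.25 in sham and -0.34 ± 0.26 in PPE (SD, n = 5), a difference of -1.65 (SE 0.16, limma adjusted p 1.37e-05). Atoh8 (-1.24) and Id2 (-0.81) passed too, and both are named after their values were seen. None of these lists says how much SMAD protein was phosphorylated, which the arrays did not measure.

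**Figure D5:**
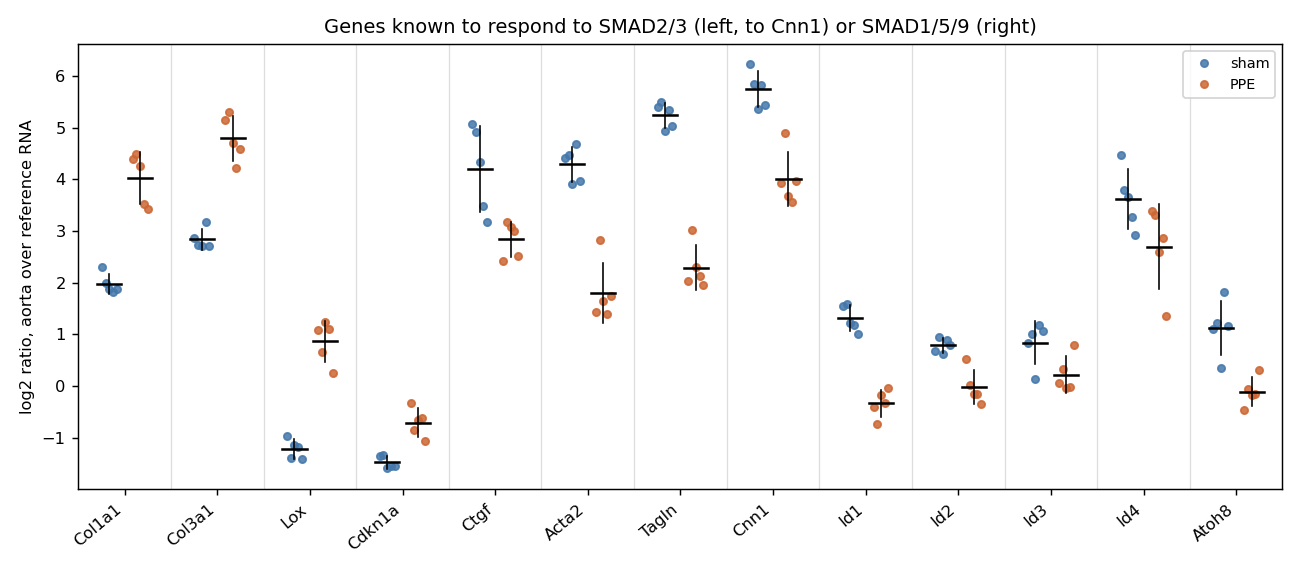
Each point is 1 array, and its height is the log2 ratio of aorta over reference, for 13 of the response genes, with group mean and SD (n = 5). Col1a1, Col3a1, Lox and Cdkn1a lie higher in PPE, the contractile genes Acta2, Tagln and Cnn1 lower, and Id1, Id2 and Atoh8 lower, without overlap, whereas Id3 and Id4 overlap. Ctgf also lies lower without overlap, though it did not pass.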

How the data were processed

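RNA of each aorta (500 ng, Cy5, red) and a universal mouse reference (Cy3, green) were hybridized to 2-colour Agilent arrays, without dye swaps. Spots were read by the authors in Agilent Feature Extraction 10.7.3.1. Signals and local backgrounds were deposited as linear intensity, and the software's LogRatio was deposited as log10 of red against green, while the authors' series matrix holds log2 ratios. The matrix equalled log2 of processed red over green on 100% of spots within 1e-04, uncentred, with column medians from -0.16 to 0.12. Probe positions in the files are on mm9.

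In R 4.3.3 with limma 3.58.1, mean signals were corrected by normexp (offset 50, which understates changes of dim probes) and loess within arrays, without control spots. Spots marked as outliers (176 to 331 per array) were then dropped and spots of 1 probe averaged. No spot was saturated. Testing required red signal well above background on 5 or more of the 10 arrays, and a gene is its brightest tested probe. Where a gene of the pathway list had several tested probes, the text says where they disagree. For genes of the other lists only the brightest tested probe is given, and agreement with their other probes is not reported. Groups, taken from the sample labels, were compared by lmFit and eBayes, unpaired and two-sided, with Benjamini-Hochberg adjustment over all 22520 names. Adjusted p-values of second probes come from a fit over all tested probes. SAM (rewritten, 100 relabellings, false discovery rate 0.01) left out 31 names with a missing value. Exact tests used all 252 relabellings.

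Members and gene lists were chosen with earlier results of these data known. Tgfb1, Furin and up to 3 called genes per role with the largest differences are given by array, and up to 5 called genes per direction of the other lists are named. Of these lists, 2 genes are not reported here and were left out of the counts. The fit was tested on simulated data.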

Additional observations from a re-analysis of the deposited data

Results flagged for a closer look

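In 40 groups of 5 values (20 genes by 2 groups), 2 held a value far from the rest of its group, where chance marks about 1 group in 20. Furin in PPE was highest on PPE 5, at a log2 ratio of 1.69 against 1.22 on the next array, PPE 1. Smad9 in PPE was lowest on PPE 1, at -1.95 against -0.96 on the next array, PPE 3, and its probe was well above background on 3 of the 5 PPE arrays.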

How the results depend on the processing

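Besides median centring, which passed 0 higher and 0 lower of the pathway genes, 3 and 0 of the further pathway genes, 0 and 0 of the response genes, and 408 and 8 of all names, every alternative kept the 4 pairs of counts within 1.5 times, except that SAM gave 16 higher further pathway genes and 4885 higher names. That count of higher names is well above the count of upregulated genes the paper reported, so the rewritten SAM did not reproduce it. No cause of these differences was tested. Leaving out 1 array gave 8 to 12 higher and 8 to 11 lower pathway genes. The calls lost were those of Tgfb2, Bmp6, Inhbb and Fstl1, given above. No direction of a called gene turned under any alternative. The other calls lost were Bmp6 without background subtraction, with an offset of 16 or with no filter, Inhbb with no filter or with scan day as a block, Smad3 with the mean of probes, Fst, Fstl1 and Furin with slide as a fixed block, and Tgfb2, Bmp6 and Fst without both sham 5 and PPE 5. Smad9 is not tested where all 10 arrays must be above background.

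The labels number the mice in both groups without saying that numbers pair them. Same-numbered mice correlated at 0.29, -0.30, 0.16, -0.14 and 0.52 in their deviations from the group means, so the numbers were not taken as pairs. The replicate block gave 12 higher and 12 lower pathway genes and 3024 higher and 2281 lower names. Dim probes and 5 arrays a group limit what small differences can be called.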
